A study of Mus musculus with 24 samples.

Results

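The REV-ERB and ROR nuclear receptors were described here through 4 genes, Nr1d1, Nr1d2, Rora and Rorb, in mouse suprachiasmatic nucleus (SCN), which paces daily rhythms from the hypothalamus. The genes were chosen by symbol, with all their probe sets: each had 1, so that 4 of 21789 probe sets with a single gene symbol, and 4 of 19938 genes, were members. All 4 passed the filter on dim genes, which left 13956 genes. The tissue came from C57/BL6 mice, entrained for weeks to 12 h of light and 12 h of dark and then held in complete darkness, with no other treatment named. Each of the 24 arrays carried RNA pooled in equal amounts from 3 mice. Collection ran at 2 h intervals between CT 18 and CT 64, where CT is circadian time, and its arrays form a first cycle (CT 18 to CT 40) and a second cycle (CT 42 to CT 64) of 12 arrays each. With 1 array per time, the error of each value is the spread around a 24-h cosine fit or between arrays of the same circadian time 24 h apart. That spread joins the differences between pools of mice and between hybridisations. The number of arrays limits the precision. The age and sex of the mice were not given in the sources used here.

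REV-ERBs and RORs are nuclear receptors that bind the same DNA element, the ROR response element. RORs activate and REV-ERBs repress from it, and their competition sets the daily rhythm of Arntl, the gene for the CLOCK partner BMAL1. CLOCK and BMAL1 in turn activate the REV-ERB genes through E-boxes, which closes a second loop of the clock beside that of the period and cryptochrome genes. Nr1d1 and Nr1d2 encode REV-ERB alpha and beta, which bind heme and recruit a corepressor with a histone deacetylase. Rora and Rorb encode ROR alpha and beta. Rorb is known for its expression in the SCN, the retina and other sensory parts of the brain.

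The sequences below show where the letters of known DNA motifs occurred in short windows at the start sites of these genes and of Arntl. RefSeq windows of 250 bases before to 50 bases after a start site (GRCm38.p6) matched all 4 genes, with 5 windows in all because Rorb has a downstream start. Motifs were searched on both strands, as exact letters or, for the ROR response element, by its consensus, and capitals mark the match. A variant of the E-box, CACGTT, lay on the opposite strand (printed as its reverse complement) at position -28 from the Nr1d1 start and at -234 from the downstream Rorb start. It was present in 4.68% of all 32851 windows. The letters AGGTCA, the half-site of nuclear receptors, lay at position -77 from the Nr1d2 start and were present in 16.3% of windows. The full ROR response element, which holds that half-site, was present in 0.384% of windows. Among them was 1 window of Arntl, a gene that these receptors control, with the match at position 27 after the start. The windows of Nr1d1, Nfil3 and Cry1, genes also known to carry the element, held no match to it.

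Nr1d1 upstream window, chr11:98775378-98775627, minus strand: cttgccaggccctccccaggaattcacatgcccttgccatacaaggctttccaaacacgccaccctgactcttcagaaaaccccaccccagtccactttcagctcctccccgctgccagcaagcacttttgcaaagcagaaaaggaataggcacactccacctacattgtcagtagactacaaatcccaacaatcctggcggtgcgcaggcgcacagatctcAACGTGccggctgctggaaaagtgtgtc
Nr1d2 upstream window, chr14:18239107-18239356, minus strand: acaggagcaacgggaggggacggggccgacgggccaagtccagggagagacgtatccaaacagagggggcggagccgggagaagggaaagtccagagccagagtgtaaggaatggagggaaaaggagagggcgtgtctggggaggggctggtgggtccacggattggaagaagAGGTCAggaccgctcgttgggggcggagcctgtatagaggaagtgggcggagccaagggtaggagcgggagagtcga
Rorb downstream start, site, chr19:19001332-19001361, minus strand: aatacacagcAACGTGattcatggggaggg
Arntl site, chr7:113207527-113207556, plus strand: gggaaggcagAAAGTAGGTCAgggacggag

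Neither CACGTG (7.15% of windows), nor the D-box letters TTATGTAA (0.938%) and TTACGTAA (0.119%), nor the cAMP response element TGACGTCA (1.79%) occurred in the 5 windows of the 4 genes. The windows of Rora and of the upstream Rorb start held no match to any motif searched. A match describes letters in a short window and is no evidence of binding in these samples.

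All 12 SCN neuron markers, among them Vip, Avp, Six6 and Vipr2, were above the filter, which 13956 of 19938 genes passed. So were most markers of other cells: 9 of 9 for astrocytes, 8 of 8 for oligodendrocytes, 6 of 6 for microglia, 7 of 8 for vessels and meninges, 9 of 10 for neighbouring hypothalamic neurons and 6 of 7 for thalamus and cortex. Of 8 measured anterior pituitary markers 5 were above it, and Cga, Tshb and Fshb were below. The mean of all 8 lay 0.35 to 1.92 above its series mean on the arrays at CT 18 to CT 26 and at or below 0.28 elsewhere, with Gh up to 11.97 against a median of 5.66. On a further 3 arrays, at CT 40, CT 62 and CT 64, values were compressed: the interquartile range was 2.15 to 2.38, against 2.43 to 2.67 on the rest. They are called the 3 narrow arrays from here on. On these 3 the mean over olfactory and vomeronasal receptor genes, called the array background from here on, was 0.16 to 0.34 above the series mean. All 3 lie in the early subjective night, where Nr1d1 and Rora were lowest. Many results that rest on these arrays are also given without them or with the array background as a covariate. The others are given with all arrays only. In whole tissue, fewer cells of a type and less RNA per cell cannot be told apart.

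All 4 receptor genes rose and fell over 24 h, and each peaked in the subjective day. The moderated F test of limma called 1067 of 13956 genes rhythmic at an adjusted p under 0.05, which is 7.65% of genes tested. Of these 1067 genes 610 had their peak from 0 to 6 h and 93 from 6 to 12 h, so a peak in the subjective day was the common case. The largest cycle was that of Nr1d1, followed by Rora, while Rorb and Nr1d2 had amplitudes near 0.2. An amplitude is the log2 distance from the fitted mean to the peak, errors are standard errors over 24 arrays, and peak times are hours of circadian time, with 0 the start of the subjective day. These 4 genes were already known to be rhythmic in these data, so the calls are the base of what follows and not independent support.

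**Figure D1:**
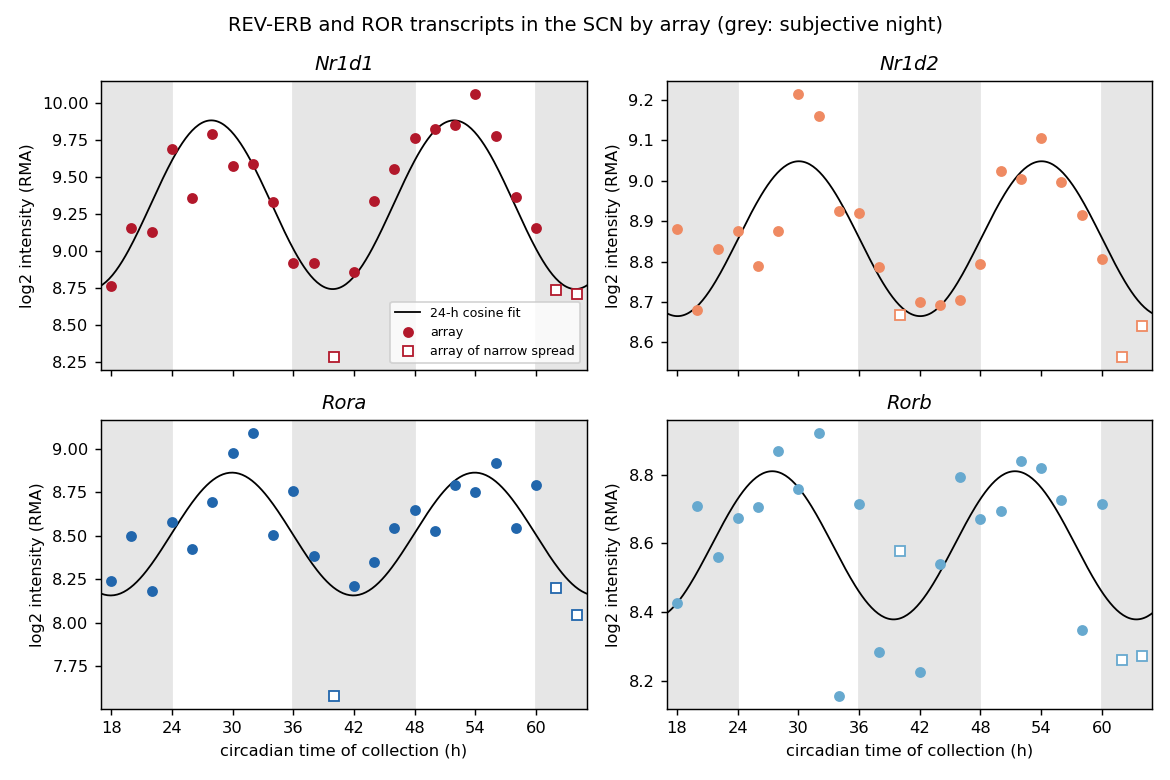
Log2 intensity of Nr1d1, Nr1d2, Rora and Rorb (vertical axes, own scale per gene) against the circadian time of collection in hours, 1 point per array, with the fitted 24-h cosine as a line and the 3 arrays of narrow spread as open squares. The lowest arrays of Nr1d1 and Rora are at CT 40, where they stand at 8.28 and 7.58.

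Nr1d1, the REV-ERB gene with the strongest cycle, was high through the subjective day and low in the early night. On the log2 scale its 6 arrays of the early day (circadian times 0, 2 and 4) ranged from 9.36 to 9.85 with a median of 9.78. The 6 arrays of the late day (6, 8 and 10) ranged from 9.33 to 10.06 with a median of 9.58. In the early night (12, 14 and 16) they ranged from 8.28 to 9.16 with a median of 8.82, and in the late night (18, 20 and 22) from 8.76 to 9.56 with a median of 9.14. The early day stood wholly above the early night, as it did for 3.98% of genes tested, while no member showed the reverse (0.86% of genes). The highest array, CT 54, stood 3.42-fold above the lowest, CT 40, which is 1 of the 3 narrow arrays. Outside these 3 the lowest was CT 18, at 8.76. The fitted peak was at 3.89 ± 0.36 h with an amplitude of 0.57 ± 0.05 (adjusted p = 3.48e-07), which ranked 5 among the 1067 called genes by amplitude. Without the 3 narrow arrays the amplitude was 0.50 ± 0.06 with a peak at 3.94 ± 0.37 h (adjusted p = 1.71e-05). Thra, the thyroid hormone receptor gene that overlaps Nr1d1 in the RefSeq annotation, had an amplitude of 0.12 ± 0.04 and did not pass (adjusted p = 0.0886).

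Nr1d2, the gene of REV-ERB beta, cycled with a smaller amplitude than its paralogue and peaked later. Its early day arrays ranged from 8.79 to 9.03 (median 8.88) and its late day arrays from 8.91 to 9.21 (median 9.05). Early night arrays ranged from 8.56 to 8.92 (median 8.73) and late night arrays from 8.68 to 8.88 (median 8.70). The late day stood wholly above the late night, which held for 0.559% of genes tested (the reverse, shown by no member, for 0.781%), whereas early day and early night overlapped. The peak was at 6.04 ± 0.62 h, the amplitude was 0.19 ± 0.03 (adjusted p = 0.00149), and the highest array, CT 30, was 1.57-fold above the lowest, CT 62.

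Rora, the gene of the activator ROR alpha, was highest in the late day. It ranged from 8.43 to 8.79 (median 8.61) in the early day and from 8.51 to 9.09 (median 8.84) in the late day. In the early night it ranged from 7.58 to 8.79 (median 8.29), the widest of its 4 windows, and in the late night from 8.18 to 8.55 (median 8.30). Windows 12 h apart overlapped. The array at circadian time 12 of each cycle was high for its window, and the arrays at CT 40 and CT 64 were the lowest of the series. The peak was at 5.94 ± 0.64 h and the amplitude 0.35 ± 0.06 (adjusted p = 0.00186). Without CT 40, CT 62 and CT 64 the amplitude was 0.27 ± 0.05 with a peak at 6.91 ± 0.69 h, and Rora remained called (adjusted p = 0.00348).

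Rorb, the gene of ROR beta, had a peak time close to that of Nr1d1, and its lowest and highest arrays both fell in the late day. Its early day arrays lay close together, from 8.67 to 8.87 (median 8.70), whereas its late day arrays ran from 8.16 to 8.92 (median 8.74). Early night arrays ranged from 8.26 to 8.72 (median 8.43) and late night arrays from 8.23 to 8.79 (median 8.55). Windows 12 h apart overlapped, and the highest and the lowest array, CT 32 and CT 34, were neighbours in time. The peak was at 3.41 ± 0.83 h with an amplitude of 0.22 ± 0.05 (adjusted p = 0.0154). Its call did not hold without CT 40, CT 62 and CT 64 (amplitude 0.21 ± 0.05, adjusted p = 0.0519) or after quantile normalisation (amplitude 0.17, adjusted p = 0.0688).

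The cycles of the 4 genes were also fitted beside the measures of array quality and tissue. The array background was highest on the 3 narrow arrays, and with it as a covariate the amplitudes were 0.49 ± 0.05 for Nr1d1, 0.18 ± 0.03 for Nr1d2, 0.32 ± 0.04 for Rora and 0.21 ± 0.05 for Rorb. All 4 remained called (adjusted p = 6.49e-07, 0.00123, 5.83e-05 and 0.0495). Over all genes tested 534 were called with this covariate, against 1067 with all arrays and no covariate. The peak of Rora moved from 5.94 h to 7.53 h under this covariate. Without the pituitary-rich arrays at CT 18 to CT 26, 4 of 4 were called, with amplitudes of 0.61, 0.23, 0.39 and 0.24 in the same order. Over all genes tested 665 were called without these arrays. The mean of the 12 SCN neuron markers itself peaked at 3.28 h with an amplitude of 0.15, and ranged from -0.57 (CT 64) to 0.30 (CT 48) around its series mean. Of these 12 markers 6 were themselves called rhythmic (7.65% over all genes), among them Rgs16 (amplitude 0.73, peak at 3.90 h) and Prok2 (0.55, 4.47 h). Their mean therefore cannot be read as cell content alone. The mean of the 9 astrocyte markers peaked at 2.14 h with an amplitude of 0.10 and was lowest at CT 40 (-0.56). The part of SCN neuron and astrocyte content in the results of the 4 genes was not tested.

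**Figure D2:**
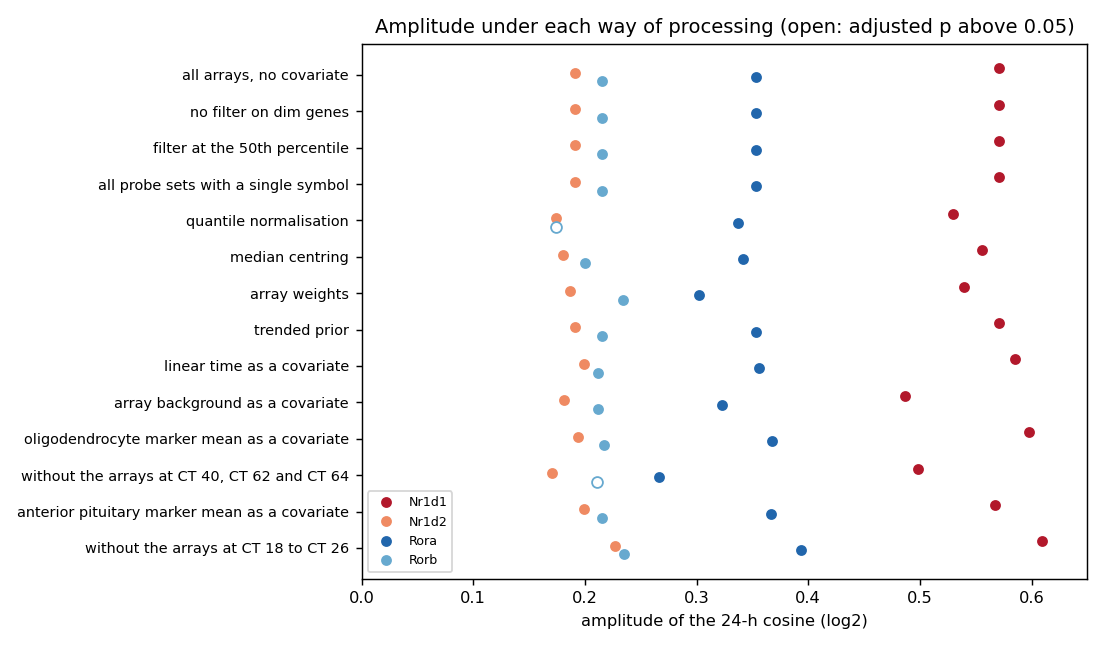
Amplitude of the 24-h cosine in log2 units (horizontal axis) for the 4 receptor genes under each way of processing the arrays (rows), with filled points where the adjusted p was under 0.05 and open points where it was not. Nr1d1 stays highest in every row, and the open points are those of Rorb after quantile normalisation and without CT 40, CT 62 and CT 64.

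Within each receptor class the fitted peaks were about 2 h or more apart, but the intervals given below reached well under 2 h. The 6 pairs of genes were compared by joint fits on the same arrays, with 95% intervals and no p-values. Nr1d2 peaked 2.15 h after Nr1d1 (interval 0.721 to 3.57 h), and Rora peaked 2.05 h after Nr1d1 (0.803 to 3.29 h). Rorb preceded Rora (difference -2.53 h, interval -4.48 to -0.579 h) and Nr1d2 (difference -2.63 h, interval -4.70 to -0.558 h). With the array background as a covariate Rora peaked later, 3.14 h after Nr1d1 (1.76 to 4.53 h), and the difference of Rorb and Rora was -4.09 h (-6.11 to -2.07 h). Without the 3 narrow arrays Nr1d2 peaked 2.68 h (0.986 to 4.37 h) and Rora 2.97 h (1.38 to 4.57 h) after Nr1d1. The difference of Rorb and Rora was then -3.41 h (-5.27 to -1.54 h). The members thus formed an early pair, Nr1d1 and Rorb (difference -0.485 h, interval -2.48 to 1.51 h), and a later pair, Nr1d2 and Rora (difference -0.0981 h, interval -1.68 to 1.48 h), each holding 1 REV-ERB gene and 1 ROR gene. Within these pairs the intervals reached 1.5 h to 2.5 h, so differences in time of up to that size lie within the error. With the array background as a covariate the differences within the pairs were -0.944 h (-3.12 to 1.23 h) and 0.815 h (-1.09 to 2.72 h), the later pair with its sign turned.

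In amplitude Nr1d1 exceeded each of the others. Its amplitude was larger than that of Nr1d2 (difference -0.38, interval -0.51 to -0.25, taken as the other gene minus Nr1d1), of Rora (-0.22, interval -0.34 to -0.092) and of Rorb (-0.36, interval -0.51 to -0.20). Rora exceeded Nr1d2 by 0.16 (interval 0.032 to 0.29), but not without CT 40, CT 62 and CT 64 (0.096, interval -0.015 to 0.21). Between Nr1d2 and Rorb (difference 0.024, interval -0.090 to 0.14) and between Rora and Rorb (difference -0.14, interval -0.28 to 0.0040) the intervals included 0. The latter was -0.056 (-0.17 to 0.056) without CT 40, CT 62 and CT 64, and -0.069 without CT 40 alone.

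**Figure D3:**
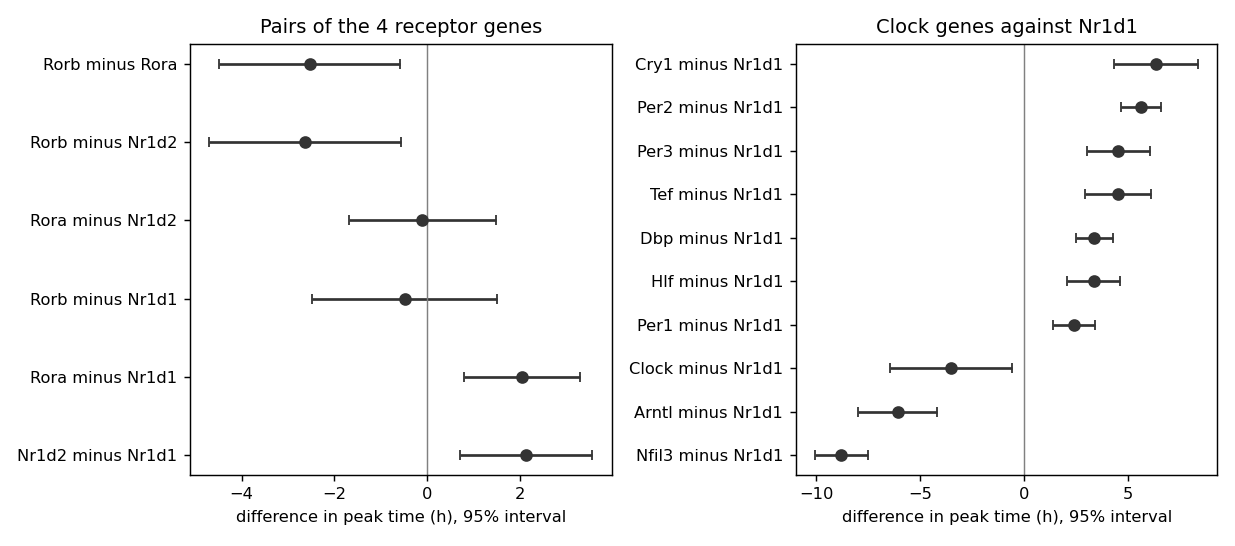
Difference in peak time in hours (horizontal axis, points with 95% intervals) between the 4 receptor genes (left) and between clock genes and Nr1d1 (right), each taken as the first named gene minus the second. Nr1d2 and Rora follow Nr1d1 by about 2 h, while Nfil3 and Arntl lie on the negative side.

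The repeat of each circadian time 24 h later shows how far these courses were reproduced. Between the arrays of the same circadian time, the SD of the 12 differences was 0.21 for Nr1d1, 0.13 for Nr1d2, 0.21 for Rora and 0.16 for Rorb, against a median of 0.17 over all genes tested. In separate fits of the cycles Nr1d1 peaked at 4.11 ± 0.63 h in the first and at 3.70 ± 0.34 h in the second, and Rora at 6.27 ± 1.13 h and 5.51 ± 0.85 h. Rorb peaked at 3.16 ± 1.83 h and 3.58 ± 0.94 h. Nr1d2 peaked at 7.0 ± 1.1 h in the first cycle and at 5.32 ± 0.46 h in the second. No change in rhythm between the cycles passed for any member (adjusted p = 1.0 each), as for 0 of 13956 genes by limma, with 338 genes (2.42%) at an unadjusted p under 0.05 and none of the 4 among them.

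**Figure D4:**
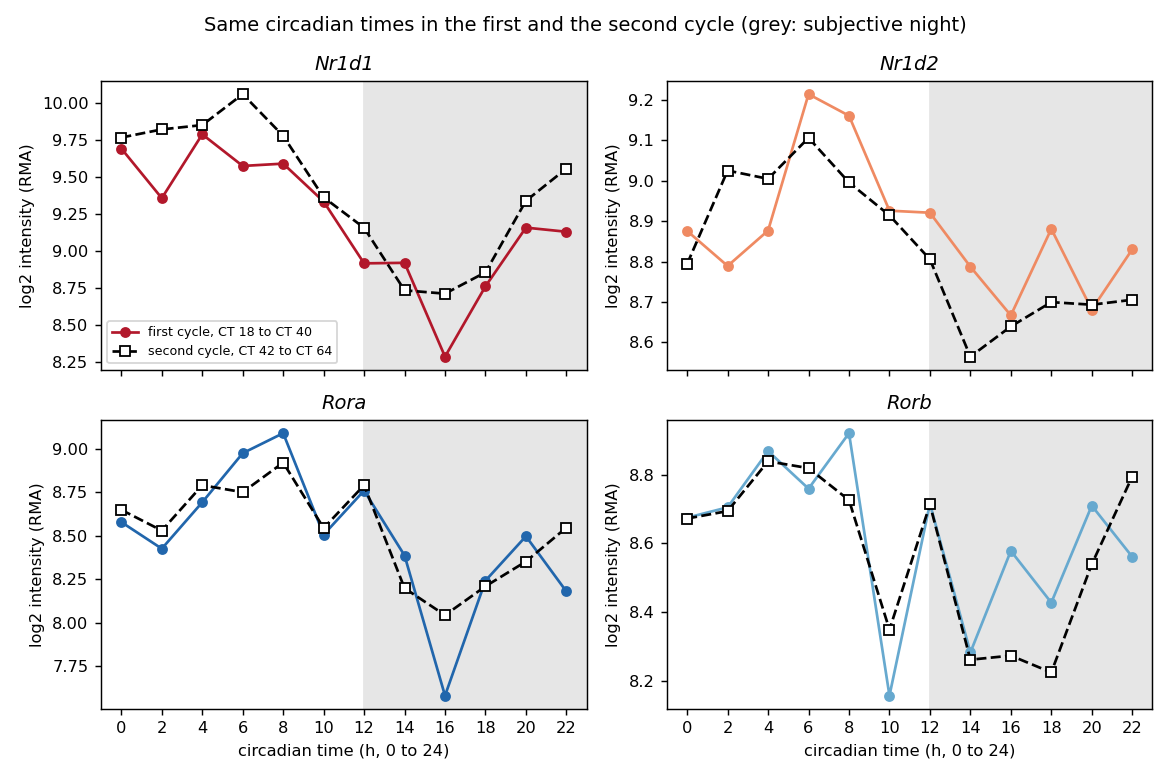
Log2 intensity of the 4 receptor genes (vertical axes) against circadian time in hours, with the first cycle as filled circles and the second as open squares. In Rora and Rorb the dip at 10 h and the return at 12 h appear in both cycles.

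Rora and Rorb shared a dip near the end of the subjective day that recurred in both cycles. At circadian time 8 Rorb stood at 8.92 in the first cycle and 8.73 in the second, at 10 at 8.16 and 8.35, at 12 at 8.72 and 8.71, and at 14 at 8.28 and 8.26. Rora stood at 9.09 and 8.92 at circadian time 8, at 8.51 and 8.54 at 10, at 8.76 and 8.79 at 12, and at 8.39 and 8.20 at 14. In both genes the array at 10 h was below its neighbours at 8 h and 12 h in each cycle. The mean of the SCN neuron markers moved alike: it was 0.29 and 0.19 at 8 h, -0.17 and -0.14 at 10 h, 0.03 and 0.23 at 12 h, and -0.17 and -0.14 at 14 h. That mean includes 6 markers that were themselves called rhythmic. The mean of the markers of neighbouring hypothalamic neurons was 0.40 and 0.28 at 10 h and below 0 in all 4 arrays at 8 h and 12 h. The part of these shifts in the dip of Rora and Rorb was not tested. The SD within circadian times was 0.15 for Rora and 0.11 for Rorb, against a residual SD around the cosine of 0.22 and 0.17. For Nr1d1 (0.20 and 0.20) and Nr1d2 (0.098 and 0.10) the corresponding values were close. A test of departure from the cosine, added after these values were seen, gave p = 0.00206 for Rora and 0.00464 for Rorb, but neither passed after adjustment (adjusted p = 0.360 and 0.369). It called 0 of 13956 genes by limma, and 9.59% of genes had an unadjusted p under 0.05. A 12-h component did not pass for any member either (adjusted p = 0.226 for Nr1d1, 0.318 for Nr1d2, 0.210 for Rora and 0.891 for Rorb), where 0.0358% of genes were called.

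Nr1d1 stood higher in the second cycle than in the first at 11 of 12 circadian times, as 0.917% of genes did at 11 or 12 of them. The exception was circadian time 14, with 8.92 and then 8.73. The widest gap was at circadian time 6, with 9.57 and then 10.06. The second cycle was higher by 0.21 ± 0.07 in the fit, but this did not pass among all genes (adjusted p = 0.409), where 0 genes were called by limma and 1216 had an unadjusted p under 0.05. With the array background as a covariate the difference was 0.22 ± 0.05 and passed (adjusted p = 0.0359). The other members differed by -0.06 ± 0.04 (Nr1d2), 0.03 ± 0.08 (Rora) and -0.04 ± 0.07 (Rorb), and none passed (adjusted p from 0.736 to 0.937). The pituitary-rich arrays all lie in the first cycle. Without them the Nr1d1 difference was 0.21 (adjusted p = 0.362).

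The period that fitted best was 24.1 h for Nr1d1 (95% range 22.5 to 25.7 h), 23.2 h for Rora (20.5 to 26.4 h) and 24.4 h for Rorb (21 to 28 h, the upper limit of the search). For Nr1d2 it was 21.3 h, with a range from the lower search limit of 20 h to 23.3 h. This range left out 24 h, and with each single array left out the period lay between 20.9 and 22.2 h. Without CT 40, CT 62 and CT 64 the range reached 24.1 h and no longer left out 24 h. For comparison, on the same arrays Dbp gave 24.1 h (22.9 to 25.5 h), Per2 24.3 h (23.4 to 25.3 h) and Arntl 26.4 h (23.4 to 28 h), so the best periods of single genes lay on both sides of 24 h.

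Among clock genes known to carry ROR response elements, Arntl and Nfil3 peaked in the subjective night, and Cry1 followed Nr1d1 and Rora. Of 5 such genes measured, Nr1d1 itself included, 4 were called rhythmic (Arntl, Nfil3 and Cry1 beside Nr1d1; 7.65% over all genes), with a median amplitude of 0.19 over the 5 against 0.07 over all genes tested. Over all arrays Arntl, which encodes BMAL1, peaked before Nr1d1 (difference -6.07 h, interval -7.98 to -4.17 h) and before Rora (difference -8.12 h, interval -10.8 to -5.48 h). With the array background as a covariate these differences were -8.34 h (-10.2 to -6.45 h) and -11.5 h (-14.0 to -8.92 h). Without the 3 narrow arrays they were -7.49 h (-9.25 to -5.72 h) and -10.5 h (-13.1 to -7.81 h). In both settings the interval against Rora passed 12 h, so the order of Arntl and Rora was not defined there. Nfil3, a repressor at D-boxes, peaked at 19.1 ± 0.50 h, nearly opposite to Rora (difference -10.9 h, interval -12.7 to -8.98 h) and earlier than Nr1d1 (difference -8.81 h, interval -10.1 to -7.54 h). The interval against Rora passed 12 h, so the order of Nfil3 and Rora was not defined. With the array background as a covariate that difference was -12.7 h (-14.4 to -10.9 h). Cry1, a repressor of CLOCK and BMAL1, followed Nr1d1 by 6.36 h (4.33 to 8.39 h) and Rora by 4.32 h (2.41 to 6.22 h). Its lags were 6.93 h and 3.79 h with the covariate, and 7.84 h and 4.86 h without the 3 narrow arrays. Clock had an amplitude of 0.09 ± 0.04 and was not called (adjusted p = 0.182).

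**Figure D5:**
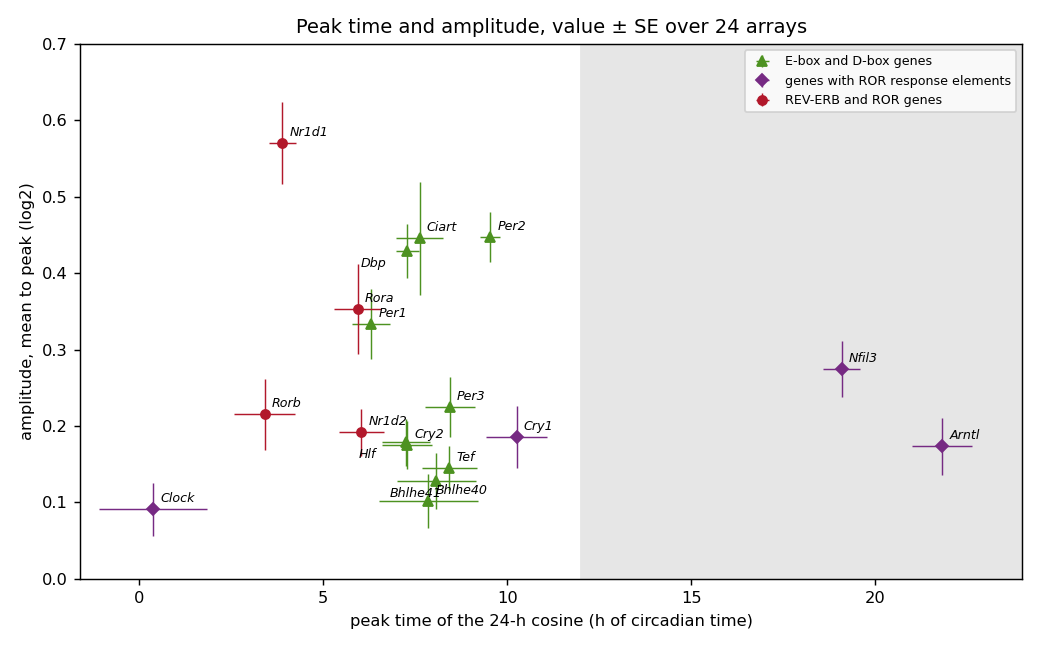
Amplitude in log2 units (vertical axis) against peak time in hours (horizontal axis) of the 24-h cosine, with standard errors over 24 arrays, for the receptor genes, other clock genes with ROR response elements, and E-box and D-box genes; grey marks the subjective night. The receptor genes peak between 3.41 and 6.04 h, Nfil3 and Arntl at 19.1 and 21.8 h.

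All 6 E-box and D-box genes compared with Nr1d1 peaked after it. Of 10 measured, 8 were called, where 7.65% of all genes were. All 8 peaked between 6 and 12 h, as did 93 of the 1067 genes called in all, and the median amplitude of the 10 was 0.20. The period gene Per1 followed Nr1d1 by 2.41 h (1.37 to 3.44 h), Per3 by 4.55 h (3.04 to 6.05 h) and Per2 by 5.64 h (4.66 to 6.62 h). The D-box activators Hlf, Dbp and Tef followed it by 3.36 h (2.07 to 4.64 h), 3.39 h (2.51 to 4.28 h) and 4.53 h (2.94 to 6.13 h). Against Rora the lag was 0.360 h for Per1 (-1.19 to 1.91 h), 1.31 h for Hlf (-0.239 to 2.86 h) and 1.35 h for Dbp (-0.0243 to 2.72 h), all with intervals that included 0. These lags were -0.743 h, 0.268 h and 0.168 h with the array background as a covariate. Per3, Tef and Per2 followed Rora by 2.50 h (1.2 to 3.8 h), 2.49 h (0.562 to 4.41 h) and 3.59 h (2.17 to 5.02 h). With the covariate Tef followed by 1.20 h, with an interval that included 0 (-0.878 to 3.28 h), and Per2 by 2.09 h (0.948 to 3.24 h). Bhlhe41 and Bhlhe40, repressors at E-boxes, had amplitudes of 0.13 ± 0.04 and 0.10 ± 0.04 and were not called (adjusted p = 0.0600 and 0.133).

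Among genes for the cofactors of the receptors, calls numbered 2 of 5 for corepressors and 1 of 11 for coactivators, where 7.65% of all genes tested were called. The median amplitude of the 5 corepressor genes of REV-ERB was 0.07, the same as over all genes tested. Hdac3, the histone deacetylase of the complex, peaked at 3.85 ± 0.94 h (amplitude 0.14 ± 0.04, adjusted p = 0.0322), and Gps2, a further subunit, at 7.95 ± 0.96 h (0.12 ± 0.03, adjusted p = 0.0357). Hdac3 missed the threshold with the array background as a covariate (amplitude 0.09, adjusted p = 0.114) and without the 3 narrow arrays (0.10, adjusted p = 0.150), while Gps2 was called in both settings. Of 11 coactivator genes of ROR only the acetyltransferase gene Kat5 was called (4.14 ± 1.02 h, amplitude 0.14 ± 0.04, adjusted p = 0.0466), and it missed the threshold with the covariate (amplitude 0.10, adjusted p = 0.144) as well as without these arrays (0.09, adjusted p = 0.210). Kat2b, an acetyltransferase gene, was called in both of them (adjusted p = 0.0299 and 0.0268) and the coactivator gene Ncoa3 with the covariate (0.0353); these were named after their values were seen.

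Genes for the making and breakdown of the receptors' ligands gave 0 of 14 calls for heme and 1 of 14 for sterols, which is near the share over all genes tested (7.65%). Of 14 tested genes of heme synthesis and breakdown, limma called 0, and their median amplitude was 0.07. At an unadjusted p under 0.05 there were 5 of the 14, where 27.5% of all genes tested had such a p. The smallest p were those of Alad, an early enzyme of heme synthesis (amplitude 0.13 ± 0.04, adjusted p = 0.0663), and Alas2, the red cell form of its first enzyme (0.17 ± 0.05, adjusted p = 0.0691). Of 14 tested genes of sterol synthesis and metabolism, 1 was called, Dhcr7, which makes cholesterol from its last precursor, at 5.11 ± 1.0 h (amplitude 0.14 ± 0.04, adjusted p = 0.0427). It missed the threshold with the array background as a covariate (amplitude 0.11, adjusted p = 0.0795) and without the 3 narrow arrays (0.10, adjusted p = 0.170). In these settings Cyp7b1, an oxysterol hydroxylase gene, was called (0.00675 and 0.0229), and without the 3 narrow arrays so was Cpox, of heme synthesis (0.0264); both were named after their values were seen.

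Of 11 tested neural genes reported elsewhere to be under REV-ERB or ROR control, 2 were called (7.65% over all genes), with a median amplitude of 0.08. Fabp7, a lipid-binding protein of astrocytes and progenitors, peaked at 3.50 ± 0.39 h with an amplitude of 0.46 ± 0.05 (adjusted p = 1.36e-06), within an hour of Nr1d1. Cacna1g, which encodes a T-type calcium channel, peaked at 2.88 ± 0.60 h (0.21 ± 0.03, adjusted p = 0.000994). Both were also called with the array background as a covariate and without CT 40, CT 62 and CT 64. Fabp7 is 1 of the 9 astrocyte markers, of which 2 were called, and the part of astrocyte content in its rhythm was not tested.

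The genes whose courses were most like those of the members were ranked by Pearson r over the 24 arrays among all genes tested. The arrays and their background are shared by every pair, so r is a description only. Closest to Nr1d1 were the phosphodiesterase gene Pde2a (r = 0.952), the small GTPase gene Rasl11b (0.929), Celf3 (0.926), Rgs16, a regulator of G protein signalling (0.918), and the kinase gene Sik1 (0.911). Farthest from it were Creld2 (-0.876), the chaperone gene Hspa1a (-0.862) and Stxbp6 (-0.851). Nr1d2 and Rora had the same 2 nearest genes, Fbxl21, which encodes an F-box protein that ubiquitinates cryptochromes (r = 0.784 and 0.908), and the transporter gene Slc2a13 (0.779 and 0.895). For Nr1d2 they were followed by Rbmx, Susd1 and Cyrib (0.756 to 0.770), and for Rora by the potassium channel gene Kcnc2 (0.879), the kinase subunit gene Prkaa2 (0.867) and Dennd6b (0.859). Nearest to Rorb were Rgs16 (0.764), Tesc (0.763), Lingo1 (0.732), Spon1 (0.720) and Car5b (0.714). Opposite to Nr1d2 stood 1700007K13Rik (-0.800), Nfil3 (-0.773) and Hspa1a (-0.768), opposite to Rora Kif27 (-0.853), Hspa1a (-0.819) and Akap14 (-0.796), and opposite to Rorb Hspa2 (-0.675), Armc2 (-0.655) and Ifit3b (-0.655). Among the members themselves r ran from 0.502 (Nr1d2 and Rorb) to 0.762 (Nr1d1 and Rora).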

How the data were processed

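Arrays were read as deposited, in log2 units: the authors had summarised and normalised probe sets by RMA (1.3.1.187) in Affymetrix Expression Console, as the submitters' processing notes state. Background and summarisation settings are not given in the sources used here. Of 35556 probe sets 21789 had 1 gene symbol in the platform annotation, 1621 several, and 12146 were not listed there. Each of 19938 genes was represented by its probe set of highest mean, and 13956 with a mean at or above the 30th percentile (log2 5.52) were tested.

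Cosine and sine terms of 24 h were fitted with limma 3.58.1 in R 4.3.3 (eBayes, moderated F test, Benjamini-Hochberg over all genes tested, threshold 0.05), with added terms for the cycle, its interaction with time, or 12 h. Joint fits of gene pairs, their delta-method intervals (21 residual degrees of freedom) and periods (20 to 28 h in steps of 0.1 h) used Python 3.11.15 with NumPy 2.4.6 and SciPy 1.17.1. The fits were tested on simulated data. Tests were two-sided. Named genes were the members, the measured clock genes, and per list up to 4 called genes of smallest adjusted p or, with none called, the 2 of smallest p, besides the genes most like each member. Motifs and sequences came from RefSeq windows (GRCm38.p6). Members and lists were chosen with earlier results of these data known. Some listed genes had no probe set of a single symbol and were not used here.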

Additional observations from a re-analysis of the deposited data

How the results depend on the processing

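The calls of Nr1d1, Nr1d2 and Rora held under all 13 other settings tried and with each single array left out, with amplitudes of 0.49 to 0.61, 0.17 to 0.23 and 0.27 to 0.39. That of Rorb was lost in 2 settings: after quantile normalisation (amplitude 0.17, adjusted p = 0.0688) and without CT 40, CT 62 and CT 64 (0.21, adjusted p = 0.0519). With single arrays left out it was called throughout (adjusted p from 0.00863 to 0.0344). The change between cycles of Nr1d1 passed in 1 setting, with the array background as a covariate (0.22, adjusted p = 0.0359). The amplitude difference of Rora and Nr1d2 was 0.096 without CT 40, CT 62 and CT 64, with an interval that included 0. That of Rorb minus Rora ran from -0.16 to -0.069 with single arrays left out, and its interval excluded 0 in 9 of these fits. In 3 other settings and with each array left out, the 6 differences in peak time between members kept their side of 0 or, where their intervals included 0, continued to do so, but with the array background as a covariate Rora minus Nr1d1 went from 2.05 to 3.14 h and Rorb minus Rora from -2.53 to -4.09 h. Over all genes, 1067 were called rhythmic, against 534 with the array background and 3376 with the oligodendrocyte marker mean as covariates, 679 without CT 40, CT 62 and CT 64, 665 without CT 18 to CT 26 and 704 without CT 28. The cause was not tested. For the change between cycles 0 were called, against 66 with the array background as a covariate. The pituitary covariate, the fits without CT 18 to CT 26 and the test of departure from a cosine were chosen after seeing the data. Signal over background was not given in the deposited values, so dim genes are bounded only by the filter.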

Other observations

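Of 27 other nuclear receptor genes tested in the SCN, 2 were called rhythmic, a share near the 7.65% of all genes tested. They were Nr4a3, an immediate early receptor, with a peak at 3.0 ± 0.77 h (amplitude 0.25 ± 0.05, adjusted p = 0.0105), and the retinoic acid receptor gene Rarb at 20.6 ± 0.91 h (0.13 ± 0.03, adjusted p = 0.0274). Nr4a3 missed the threshold with the array background as a covariate (amplitude 0.22, adjusted p = 0.0619) and without the 3 narrow arrays (0.22, adjusted p = 0.0627), while Rarb was called in both. The median amplitude of the 27 was 0.08, against 0.07 over all genes tested and 0.19 to 0.57 for the 4 REV-ERB and ROR genes. Of 11 tested genes whose proteins act on the stability of REV-ERB, 1 was called, again near the share of all genes: the ubiquitin ligase gene Huwe1 (1.70 ± 0.96 h, amplitude 0.14 ± 0.03, adjusted p = 0.0349), which missed the threshold with the array background as a covariate (0.05, adjusted p = 0.428) and without the 3 narrow arrays (0.08, adjusted p = 0.0881).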
